A study of Mus musculus with 4 samples.

Results

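The canonical replication-dependent histone genes were followed across 4 RNA-seq libraries of myeloid-derived suppressor cells (MDSCs), 2 wild-type (WT) and 2 with a mutated Trem2 gene. Members were the protein-coding genes of the GENCODE M21 annotation whose symbols start Hist1h, Hist2h, Hist3h or Hist4h. The annotation holds 67 of them. Of these, 49 were among the 17476 genes of the count table, and 42 passed the filter on low counts that left 14239 genes tested. MDSCs are myeloid cells, of granulocytic or monocytic type, that dampen T cell responses in tumours. They were grown in culture from bone marrow of C57BL/6 mice (WT) or TREM2mut mice (Trem2 mutant), and the labels do not give the kind of mutation. All cells of both groups were injected into NRG males, an immunodeficient strain, that had received TRAMP-C1 mouse prostate cancer cells under the skin at 6 weeks of age and the MDSCs 4 weeks later. Tumours were taken 6 h after the injection, digested for 45 minutes, and sorted for CD45+, CD11B+, GR1+ cells. None of these markers tells injected MDSCs from myeloid cells that the recipient itself made. Total RNA was depleted of ribosomal RNA and was not selected for poly(A) tails. The libraries are called WT 1, WT 2, Trem2 mutant 1 and Trem2 mutant 3 after the columns of the table. Nothing in the sources used here says that they came from separate animals, so p-values measure the spread between these libraries, which may be technical.

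Histones are the proteins that package DNA. H2A, H2B, H3 and H4 form the core of the nucleosome, and H1 binds the linker DNA between cores. The canonical genes are clustered and mostly without introns, and are transcribed mainly in S phase, when new DNA has to be packaged. Their mRNAs end in a short stem-loop in place of a poly(A) tail. The stem-loop is bound by SLBP, cleavage after it is guided by the U7 snRNP, and the mRNA is degraded when replication stops. A minority of the genes also give polyadenylated mRNA in cells that have left the cell cycle.

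The 67 annotated members were 6 H1, 18 H2A, 18 H2B, 12 H3 and 13 H4 genes (GRCm38 coordinates). The Hist1 cluster on chromosome 13 holds 54 of them in 2 blocks, chr13:21715763-22043676 with 23 genes and chr13:23531050-23934851 with 31 genes. The Hist2 cluster, chr3:96219865-96270132, holds 10, Hist3 on chromosome 11 holds 2, and Hist4h4 lies alone on chromosome 6. A single exon was annotated for 62 members. The stem-loop was searched on the transcript strand as a pattern of 16 bases that is fixed at the positions shared by the 6 versions given below and free at the others. It was in the annotated transcripts of 44 members. It was in those of 34 other protein-coding genes, 0.155% of them. Within the last 100 bases of a transcript it occurred in 22 members and in 1 other gene, Rab12. The stem-loop is what sets these mRNAs apart from other mRNAs, and 8 examples from the GENCODE M21 transcripts follow, 5′ to 3′, with the 16 bases of the motif in capitals and 5 bases on each side.
Hist1h4d: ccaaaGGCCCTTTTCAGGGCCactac
Hist1h4j: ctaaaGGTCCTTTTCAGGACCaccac
Hist2h4: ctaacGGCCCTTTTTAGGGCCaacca
Hist1h1c: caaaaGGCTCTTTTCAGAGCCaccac
Hist1h1e: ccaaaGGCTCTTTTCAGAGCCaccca
Hist2h2ac: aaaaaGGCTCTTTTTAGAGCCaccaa
Hist1h3e: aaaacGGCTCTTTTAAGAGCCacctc
Hist3h2a: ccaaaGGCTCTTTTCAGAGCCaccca

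The stem-loop split by class. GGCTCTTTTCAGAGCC was carried by 26 members and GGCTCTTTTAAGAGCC by 6, none of them H4 genes, and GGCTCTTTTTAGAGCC by Hist2h2ac alone. The H4 genes carried other versions of the stem: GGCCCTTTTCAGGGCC in 7, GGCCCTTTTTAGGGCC in 2 and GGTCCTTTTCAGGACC in 2, each found in no other class. The remaining 23 members had no match in their annotated transcripts, which says only that these letters are not in those transcripts.

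The promoters of the members, whatever their values, were read from RefSeq (GRCm38.p6), as the 200 bases before the annotated start. Of the 67 members, 62 matched that table, with 63 windows because Hist1h2be has 2 starts. Capitals mark the CCAAT box, the TATA box (searched as TATAAA) and the octamer ATTTGCAT, on either strand. One example each of H1, H2A, H3 and H4 follows.
Hist1h1e, chr13:23622559-23622758, minus strand: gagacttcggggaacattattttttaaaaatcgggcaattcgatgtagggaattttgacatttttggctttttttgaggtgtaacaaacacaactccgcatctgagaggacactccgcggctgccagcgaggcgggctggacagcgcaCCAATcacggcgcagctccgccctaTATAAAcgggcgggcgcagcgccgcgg
Hist2h2ac, chr3:96220881-96221080, minus strand: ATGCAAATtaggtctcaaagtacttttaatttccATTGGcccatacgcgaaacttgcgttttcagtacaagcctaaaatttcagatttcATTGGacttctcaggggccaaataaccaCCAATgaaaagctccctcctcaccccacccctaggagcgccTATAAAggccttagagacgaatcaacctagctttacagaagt
Hist1h3e, chr13:23562386-23562585, minus strand: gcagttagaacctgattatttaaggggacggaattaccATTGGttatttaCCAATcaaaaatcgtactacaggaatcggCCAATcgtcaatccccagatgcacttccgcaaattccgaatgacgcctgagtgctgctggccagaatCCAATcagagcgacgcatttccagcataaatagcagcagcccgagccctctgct
Hist1h4d, chr13:23581368-23581567, plus strand: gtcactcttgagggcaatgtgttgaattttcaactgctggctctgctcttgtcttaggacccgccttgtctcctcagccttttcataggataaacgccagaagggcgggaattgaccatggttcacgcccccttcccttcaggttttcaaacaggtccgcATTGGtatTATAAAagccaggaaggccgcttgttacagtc

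CCAAT was present in 82.5% of the members' windows and in 29.3% of all 32851 promoter windows of the same length. It was in all 6 H1, 18 H2A and 17 H2B windows, in 8 of 10 H3 windows and in 3 of 12 H4 windows. TATAAA was present in 41.3% of the members' windows against 9.96% of all windows. The octamer ATTTGCAT, known as a binding site of Oct-1 (Pou2f1), was in 22.2% against 1.38%. It was found in 38.9% of H2A and 41.2% of H2B windows, and in 0 of the H1, H3 and H4 windows. H2A and H2B genes often share these bases: 13 divergent pairs of members started within 1000 bases of each other, between 175 and 659 bases apart, and 12 of them paired an H2A with an H2B gene.

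The libraries held between 8037733 and 10306674 reads on genes. The share of reads on Gm42418, a gene that overlaps ribosomal RNA sequence, was 1.04% in WT 1, 0.258% in WT 2, 13.9% in Trem2 mutant 1 and 0.418% in Trem2 mutant 3. Trem2 itself had 44.2 and 52.2 CPM (read counts scaled to a common depth with TMM factors) in the WT and 22.9 and 20.96 CPM in the mutant libraries, a log2 fold change of -1.14 ± 0.125 (SE, edgeR adjusted p = 0.00157). Ptprc and Itgam, which encode CD45 and CD11b of the gate, were present in all 4 libraries. Of the 10 neutrophil granule markers, 10 were called higher in the mutant, and their summed level was 4686 and 4411 CPM in the WT against 30057 and 24172 CPM in the mutant libraries. Ly6g, a GR1 antigen, had 5.66 and 7.22 CPM in the WT against 144 and 123 CPM in the mutant libraries. The 4 erythroid markers in the table summed to 6.74 and 27.6 CPM in the WT against 61.3 and 164 CPM in the mutant libraries, and the 5 fibroblast markers to 157 and 107 against 443 and 399 CPM. The epithelial tumour markers, of which Krt5 was not in the table, summed to 154 and 161 CPM in the WT against 85.8 and 88.4 CPM in the mutant libraries. Of 6 lymphoid markers 3 were in the table, summing to 6.31 and 6.90 CPM in the WT against 4.07 and 3.65 CPM in the mutant libraries, and Cd3e, Cd3g and Nkg7 were not in it. The part of these differences in the results below was not tested, and in bulk RNA fewer cells of a type and less RNA per cell cannot be told apart.

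Summed over the members as CPM, histone mRNA was at a similar mean level in both genotypes but far apart in the 2 mutant libraries. The members took 6966 reads in WT 1, 9182 in WT 2, 10103 in Trem2 mutant 1 and 4896 in Trem2 mutant 3. These are 0.0867%, 0.114%, 0.0980% and 0.0499% of all reads. As summed CPM they were 758, 1005, 1210 and 526, with means of 881 ± 175 (SD, n = 2) in the WT and 868 ± 484 (SD, n = 2) in the mutant. In CPM, Trem2 mutant 1 was the highest library and Trem2 mutant 3 the lowest, with the WT libraries between them. As a share of all reads WT 2 was the highest, and Trem2 mutant 3 again the lowest. Trem2 mutant 1 was 2.30-fold above Trem2 mutant 3 (95% interval 2.22 to 2.38, counting error only). WT 2 was 1.33-fold above WT 1 (1.29 to 1.37).

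In CPM, Trem2 mutant 1 and Trem2 mutant 3 were also the ends of the range in each class, with gaps of different size. Summed H1 reads were 485 and 677 CPM in the WT, 724 in Trem2 mutant 1 and 363 in Trem2 mutant 3. H4 had 162 and 177 CPM in the WT, 273 in Trem2 mutant 1 and 70.8 in Trem2 mutant 3. H3 had 18.9 and 22.8 CPM in the WT, 52.3 in Trem2 mutant 1 and 12.1 in Trem2 mutant 3. On this TMM scale the lowest library was Trem2 mutant 3 and the highest Trem2 mutant 1 in every class. As a share of all reads Trem2 mutant 3 was still the lowest, but WT 2 was above Trem2 mutant 1 for H1 (0.0766% against 0.0587%), H2A (0.00359% against 0.00326%) and H2B (0.0109% against 0.00973%). The ratio of Trem2 mutant 1 to Trem2 mutant 3 was 4.31 for H3 (3.50 to 5.35), 3.85 for H4 (3.53 to 4.21), 2.93 for H2A (2.38 to 3.62), 1.995 for H1 (1.91 to 2.08) and 1.81 for H2B (1.64 to 2.01). Without Hist1h1c, which alone supplied more reads than any other member, the ratio over all members was 3.14.

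**Figure D1:**
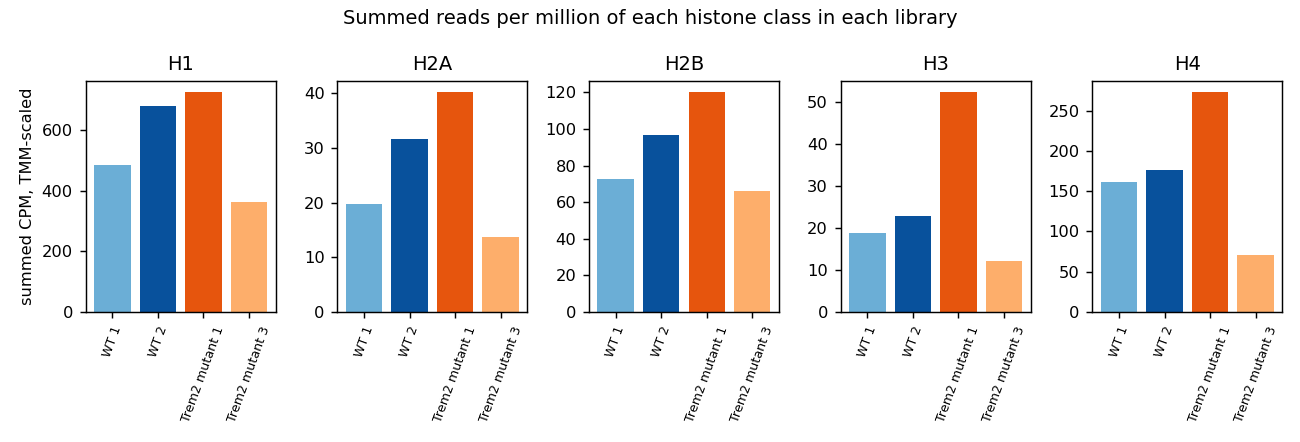
Summed CPM (TMM-scaled, linear axis from 0, a different scale in each panel) of the members of each histone class, 1 bar per library and no error bars since each bar is 1 library. On this TMM scale Trem2 mutant 1 is in all 5 classes the highest bar and Trem2 mutant 3 the lowest, 4.31-fold apart for H3 and 1.81-fold for H2B.

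Between genotypes, no histone gene was called. With edgeR's quasi-likelihood test 0 of 42 tested members passed an adjusted p of 0.05, against 13.2% of all genes tested (9.55% higher and 3.6% lower in the mutant). One member had an unadjusted p under 0.05. DESeq2 and limma-voom also called 0, with 1 and 0 members at an unadjusted p under 0.05. The log2 fold changes ran from -0.52 to 1.43, with 28 above 0 and 14 below, and had a median of 0.20 against -0.02 over all genes tested. A p that misses the threshold does not show equal levels, and the standard errors were wide: the median was 0.540 for the members and 0.169 for all genes tested. The CPM ranges of the groups were apart for 1 of the 42 members, against 60.5% of all genes tested. These counts moved with single libraries, which the values below show.

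H1 genes gave the most reads. Hist1h1c encodes the linker histone H1.2, and lies on chr13:23738808-23740367 in a single exon. It had 339 and 443 CPM in the WT and 421 and 274 CPM in Trem2 mutant 1 and 3. The groups overlapped, with WT 2 highest and Trem2 mutant 3 lowest, and the log2 fold change was -0.17 ± 0.201 (SE, adjusted p = 0.612). Hist1h1e, encoding H1.4, had 97.7 and 129 CPM in the WT, 186 in Trem2 mutant 1 and 54.7 in Trem2 mutant 3. Both WT libraries lay between the mutant ones, and the log2 fold change was 0.08 ± 0.451 (adjusted p = 0.926). Its exons overlap those of Hist1h2be, so the reads of the pair may be split in an unknown way.

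Hist1h1d, encoding H1.3, had 26.8 and 69.4 CPM in the WT, 64.6 in Trem2 mutant 1 and 13.5 in Trem2 mutant 3. Here the WT libraries were 2.59-fold apart and the mutant libraries 4.77-fold, and the log2 fold change was -0.31 ± 0.635 (adjusted p = 0.781). Hist1h1b, encoding H1.5, had 13.9 and 26.8 CPM in the WT, 43.4 in Trem2 mutant 1 and 13.6 in Trem2 mutant 3. Its mutant libraries lay on either side of both WT libraries, with Trem2 mutant 3 just below WT 1, and the log2 fold change was 0.47 ± 0.490 (adjusted p = 0.557). Hist1h1a, encoding H1.1 and named after its values were seen, differed less between the mutant libraries, with 71 and 82 reads in the WT, 82 in Trem2 mutant 1 and 63 in Trem2 mutant 3.

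H4 genes had wide gaps between the mutant libraries. All of them encode the same core histone. Hist1h4d had 473 and 478 reads in the WT, 698 in Trem2 mutant 1 and 154 in Trem2 mutant 3. As CPM these were 51.5, 52.3, 83.6 and 16.6: the WT libraries were 1.02-fold apart and the mutant libraries 5.05-fold. The log2 fold change between genotypes was -0.06 ± 0.556 (adjusted p = 0.954). Hist2h4 had 32.6 and 36.5 CPM in the WT, 37.1 in Trem2 mutant 1 and 11.6 in Trem2 mutant 3. Trem2 mutant 1 was level with the WT libraries here and Trem2 mutant 3 lay below them, and the log2 fold change was -0.52 ± 0.413 (adjusted p = 0.441). Hist4h4 had 13.2 and 16.1 CPM in the WT, 20.4 in Trem2 mutant 1 and 6.88 in Trem2 mutant 3 (log2 fold change -0.12 ± 0.412, adjusted p = 0.880). Hist1h4f, named after its values were seen, had 82 and 102 reads in the WT, 213 in Trem2 mutant 1 and 43 in Trem2 mutant 3, a ratio of 5.52 between the mutant libraries (3.96 to 7.85).

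H2A, H2B and H3 genes were fewer in reads. Hist2h2ac, an H2A gene, had 6.64 and 11.7 CPM in the WT, 12.1 in Trem2 mutant 1 and 2.90 in Trem2 mutant 3 (log2 fold change -0.31 ± 0.552, adjusted p = 0.745). Hist3h2a, an H2A gene outside the large clusters, had 24 and 30 reads in the WT, 23 in Trem2 mutant 1 and 30 in Trem2 mutant 3. Its libraries were close together and its mutant libraries were in the opposite order (log2 fold change 0.02 ± 0.304, adjusted p = 0.968). Hist1h2bc, an H2B gene, had 22.7 and 22.4 CPM in the WT, 27.6 in Trem2 mutant 1 and 21.1 in Trem2 mutant 3 (log2 fold change 0.10 ± 0.151, adjusted p = 0.691). Hist1h2be, also H2B, had 15.3 and 26.9 CPM in the WT, 28.7 in Trem2 mutant 1 and 19.6 in Trem2 mutant 3 (log2 fold change 0.19 ± 0.273, adjusted p = 0.687). In these last 2 genes the mutant libraries were 1.31-fold and 1.47-fold apart. Hist1h3e, an H3 gene, had 5.44 and 8.54 CPM in the WT, 15.1 in Trem2 mutant 1 and 3.55 in Trem2 mutant 3 (log2 fold change 0.40 ± 0.564, adjusted p = 0.681). Hist1h3b, named after its values were seen, was the member whose groups did not overlap, with 9 and 8 reads in the WT and 30 and 14 in the mutant (log2 fold change 1.43 ± 0.517, adjusted p = 0.112).

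**Figure D2:**
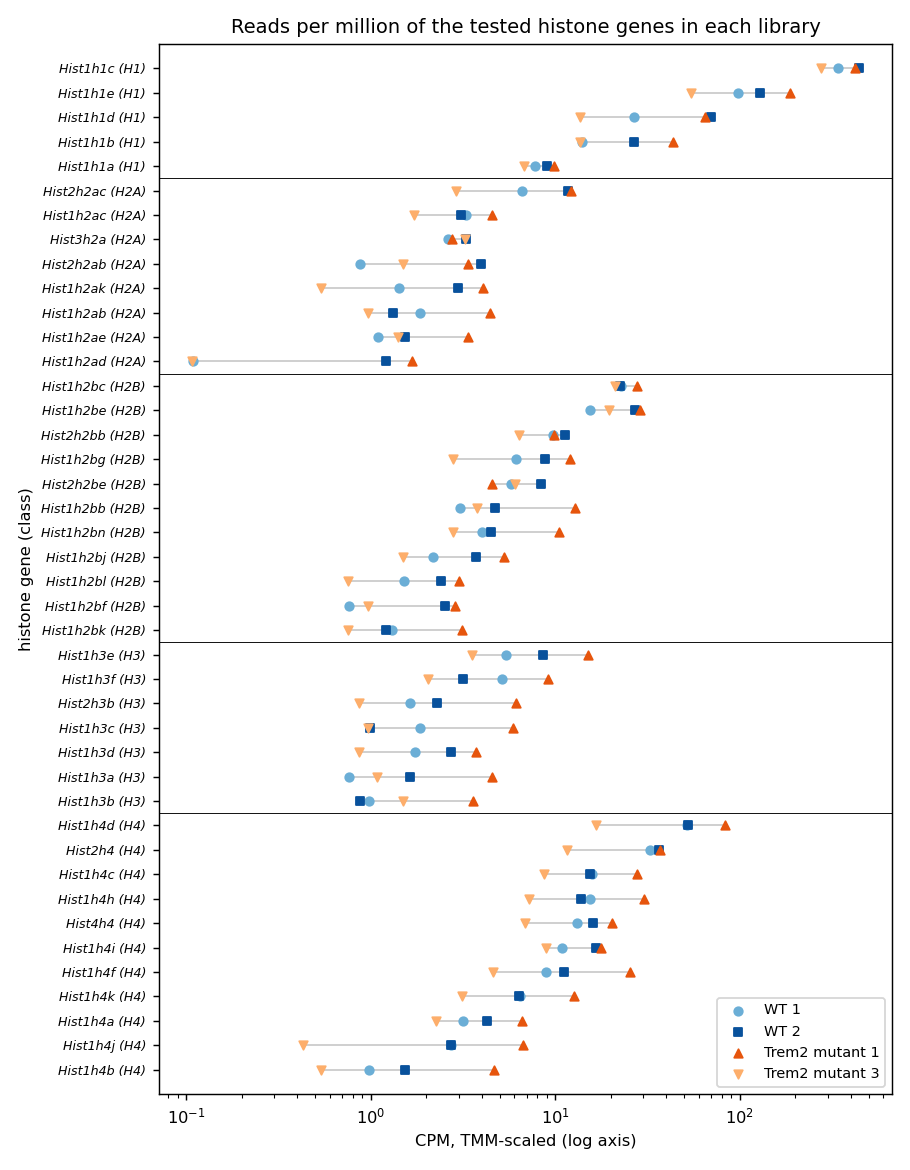
CPM (TMM-scaled, log axis) of the 42 tested members, 1 row per gene ordered by class and mean level, 1 marker per library, with a grey line from the lowest to the highest library. Trem2 mutant 1 is the highest marker in 36 rows and Trem2 mutant 3 the lowest in 33. The widest rows are Hist1h2ad, with 1 read in 2 of its libraries, and Hist1h4j, with 4 reads in Trem2 mutant 3.

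Levels of different genes were compared per exonic length, and Hist1h1c was again the highest. Among members named by rule, mean RPKM over the 4 libraries was 237 for Hist1h1c, 60.5 for Hist1h1e, 44.8 for Hist1h4d and 32.9 for Hist1h1b. It was 20.3 for Hist1h2bc, 18.1 for Hist2h4, 16.03 for Hist2h2ac and 9.75 for Hist1h3e. Members not named by rule can lie between these, such as Hist2h2bb, the highest H2B gene, at 24.4 RPKM. Hist1h1d, annotated with 7425 exonic bases, had 5.87 RPKM. The mean of Hist1h1c stood above the highest value of any other member in any library, which was 96.3 RPKM for Hist1h1e in Trem2 mutant 1. RPKM of Hist1h4d in the libraries ran from 14.5 to 73.5 and that of Hist1h1b from 18.4 to 58.4, so these neighbours in the order did not differ beyond their spread.

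The contrast between the 2 mutant libraries was shared by most members. Trem2 mutant 1 exceeded Trem2 mutant 3 more than 2-fold in 34 of 42 tested members, against 2.52% of all genes tested. Trem2 mutant 3 exceeded Trem2 mutant 1 more than 2-fold in 0 of 42, against 1.89%. The median ratio was 3.62 for the members and 0.998 for all genes tested. Many members have few reads, but among the 13 with a mean of at least 10 CPM the count was 9, against 0.546% of all genes at that level. Trem2 mutant 1 lay above and Trem2 mutant 3 below both WT libraries in 30 of 42 members, against 5.21%. The WT libraries differed less: WT 2 exceeded WT 1 more than 2-fold in 6 of 42 members, against 2.31%, with a median ratio of 1.34. Scaled by library totals alone, 33 of 42 members were more than 2-fold higher in Trem2 mutant 1 than in Trem2 mutant 3, and scaled by reads of protein-coding nuclear genes 34 of 42; these scalings were chosen after seeing the data.

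**Figure D3:**
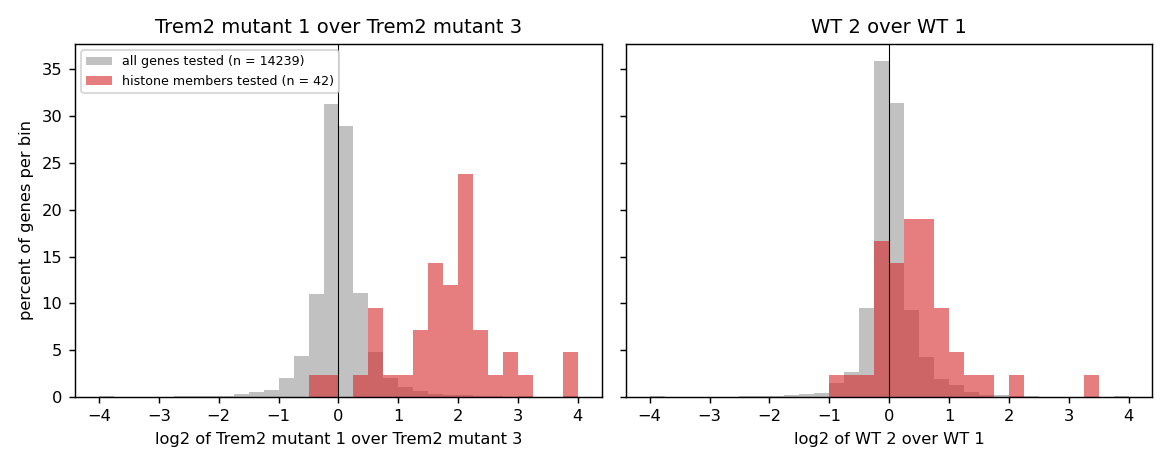
Percent of genes per bin of 0.25 in the log2 ratio of the 2 mutant libraries (left) and of the 2 WT libraries (right), for the 14239 genes tested (grey) and the 42 tested histone members (red), with ratios beyond 4 in either direction placed in the end bins. The members' ratios between the mutant libraries lie mostly to the right of 0, with a median of 3.62-fold against 0.998-fold for all genes, and those between the WT libraries have a median of 1.34-fold.

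The 8 members at or under a 2-fold ratio were Hist1h4i at 1.99, Hist2h2bb at 1.55, Hist1h1c at 1.53, Hist1h2be at 1.47, Hist1h1a at 1.45, Hist1h2bc at 1.31, Hist3h2a at 0.855 and Hist2h2be at 0.756. Of these, 4 (Hist1h4i, Hist2h2bb, Hist1h1a and Hist2h2be) are not among the genes named by rule and are listed because the count is small. Divergent neighbours could differ. Hist2h2ac had a ratio of 4.17 (2.70 to 6.63) and Hist2h2be, an H2B gene that starts 238 bases away on the other strand, had 0.756 (0.487 to 1.16). Hist1h2ac and Hist1h2bc, 250 bases apart, had ratios of 2.65 and 1.31, but Hist1h2ac had only 38 and 16 reads in these libraries. In the other pairs with both genes tested, both were more than 2-fold higher in Trem2 mutant 1. Hist1h2ak and Hist1h2bn had 7.58 and 3.73, Hist1h2ae and Hist1h2bg 2.40 and 4.29, and Hist1h2bf and Hist1h2ad 2.97 and 15.6. Reads were few here too. Hist1h2ak had 34 in Trem2 mutant 1 and 5 in Trem2 mutant 3, and Hist1h2ad had 1 in Trem2 mutant 3. Mean levels were 1.84 CPM for Hist1h2ae and 1.78 CPM for Hist1h2bf. Pairs with both genes tested numbered 5, so these are descriptions of single pairs.

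The ratio was set beside the features of the annotated transcript ends. Some annotated transcripts are short, such as 312 bases for Hist1h4k and 381 for Hist1h2bl, and may lack the true end. A missing stem-loop or poly(A) signal is therefore a fact of the annotation and says nothing about the mRNA. All 13 tested members with a stem-loop in the last 100 annotated bases were more than 2-fold higher in Trem2 mutant 1, with a median ratio of 4.23. Of 17 tested members with the stem-loop farther from the annotated end 13 were, with a median of 3.20. Of 12 tested members without a match 8 were, with a median of 3.05. Hist1h4f and Hist1h4h belong to the first kind, Hist1h4d, Hist2h4 and Hist1h1c to the second, and Hist1h2bc and Hist2h2be to the third. A poly(A) signal, AATAAA or ATTAAA, stood in the last 50 annotated bases of 11 tested members, of which 6 were over 2-fold with a median ratio of 2.40. Among the other 31 it was 28, with a median of 4.14. The first 11 include Hist1h1c, Hist1h2be, Hist2h2be and Hist3h2a, and also Hist1h4j, which had the widest ratio among the H4 genes at 15.6 from 56 and 4 reads. The ranges of all these kinds overlapped.

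Leaving out either mutant library gave calls in opposite directions. Without Trem2 mutant 1, 12 of 43 tested members were called lower in the mutant and 0 higher, against 4.07% of genes called lower and 9.98% called higher, and the members' median log2 fold change was -0.83. Without Trem2 mutant 3, 19 of 46 were called higher and 0 lower, against 14.2% of genes called higher and 6.2% called lower, and the median was 0.84. In these fits the lone library is assumed to vary like the WT pair. Without WT 1 or WT 2, 0 of 46 and 0 of 45 members were called, against 3.86% and 5.66% of genes in either direction, with medians of -0.03 and 0.47.

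6 genes were called lower in one of these fits and higher in the other: Hist1h1e, Hist1h4c, Hist1h4d, Hist1h4f, Hist1h4h and Hist1h4j. For Hist1h4d the log2 fold change was -1.64 when Trem2 mutant 1 was left out and 0.71 when Trem2 mutant 3 was. For Hist1h1e it was -1.04 and 0.73, and for Hist1h4f -1.11 and 1.36. Hist1h1c was called lower without Trem2 mutant 1 at -0.50, and its log2 fold change in the other fit was 0.12. Hist2h4 was called lower at -1.56 in the first fit and stood at 0.12 in the second. With library totals as the only scaling, which moved the median of all genes to -0.40, Hist1h1c, Hist2h2bb, Hist2h2be and Hist2h4 were called lower, 4 of 42 against 30.7% of genes, with a members' median of -0.21.

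**Figure D4:**
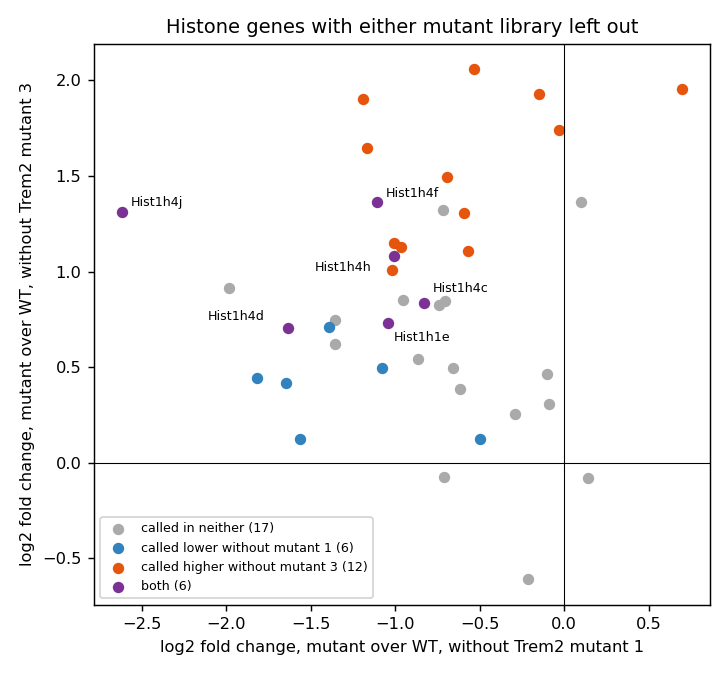
Log2 fold change of mutant over WT without Trem2 mutant 1 (x axis) and without Trem2 mutant 3 (y axis) for the 41 members tested in both fits and in the fit of all 4 libraries, 1 point per gene, coloured by the calls at an adjusted p of 0.05. Most points lie in the upper left area, and the 6 labelled genes were called lower in one fit and higher in the other.

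Members outside the tested set had, by median, more sequence in common with other genes, though the ranges overlapped. Of each member's exonic windows of 75 bases, the share found in transcripts of other genes had a median of 38.5% in the 49 members of the table and of 86.1% in the 18 that are not in it. For the 42 tested members it was 35.01%, and for the 7 in the table but not tested 78.3%. The share was over 50% in 14 of the 42 tested members and 100% in 2 of them, and it was 0% in 1 member that is not in the table. The untested members were Hist1h2ai, Hist1h3i, Hist1h2ah, Hist1h2ag, Hist1h2af, Hist1h3g and Hist2h3c2. How reads with several matches were counted was not given in the sources used here, so single members with a high share, such as Hist1h3e at 59.4%, are uncertain. Hist1h4d, Hist2h4 and Hist1h1c had 3.67%, 0.0% and 6.66% of such windows. Exons of 24 members overlapped another annotated gene. Hist2h2ac overlaps the predicted microRNA gene Gm44492, which had 36, 68, 69 and 13 reads in the same order of libraries against 61, 107, 101 and 27 of Hist2h2ac. Summed over members with no exon overlap, Trem2 mutant 1 was 2.17-fold above Trem2 mutant 3 (2.09 to 2.26), and over members with at most 50% of windows shared 2.24-fold.

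Genes that make and handle histone mRNA lacked this contrast between the mutant libraries. Of 20 genes of histone mRNA 3′ end processing and turnover, 0 rose and 2 fell in the mutant. Over all genes tested 9.55% were called higher and 3.6% lower. The 2 that fell were Zfp473, the zinc finger protein of the U7 complex, at a log2 fold change of -0.995 ± 0.101 (adjusted p = 0.001) and Snrpb, an Sm core protein, at -0.63 ± 0.082 (adjusted p = 0.003). Slbp, the stem-loop binding protein, had 39.6 and 48.4 CPM in the WT and 44.0 and 43.8 CPM in the mutant libraries. The mutant libraries were level for Slbp (ratio 1.003) while they differed for most members. Of 11 genes of histone gene transcription 1 rose and 1 fell, beside the same shares over all genes. Cdk2, a cyclin-dependent kinase of S phase entry, rose by 0.64 ± 0.136 (adjusted p = 0.021). Npat, the activator of histone genes and a Cdk2 substrate, fell by 0.49 on the log2 scale (adjusted p = 0.035), from 30.7 and 31.5 CPM to 20.8 and 23.5 CPM. Zfp473 and Snrpb were called with any 1 of the 4 libraries left out. The 3′ end list had a median log2 fold change of -0.22 without Trem2 mutant 3. With library totals alone, a scaling that lowers most genes, 14 of the list were called lower, against 30.7% of all genes. Cdk2 and Npat were not called without WT 1 (adjusted p = 0.142 and 0.174) or WT 2 (0.089 and 0.167), nor Npat without Trem2 mutant 1 (0.078) or by DESeq2 (0.180). Across these lists 0 of 20 and 0 of 11 genes were more than 2-fold higher in Trem2 mutant 1 than in Trem2 mutant 3. These counts are near the 2.52% of all genes tested. The median ratios were 0.982 and 1.02, against 0.998 for all genes tested and 3.62 for the members.

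The genes listed as replication-independent variants encode histones that can replace canonical ones outside S phase, and most of them have polyadenylated mRNAs. With all 4 libraries 0 of the 10 tested were called, against 13.2% of all genes tested. Their median log2 fold change turned with the mutant library left out, to -0.37 without Trem2 mutant 1 and 0.15 without Trem2 mutant 3. Over all genes tested the medians of these 2 fits were -0.01 and -0.02, and over the canonical members -0.83 and 0.84. H2afz was at -0.43 in the first of these fits, and H3f3a at 0.35 in the second. H2afz had 66.7 and 70.8 CPM in the WT and 78.8 and 50.8 CPM in the mutant libraries. H2afx had 10.99 and 10.9 CPM in the WT and 12.7 and 7.20 CPM in the mutant libraries. H3f3a had 150 and 149 CPM in the WT and 188 and 166 CPM in the mutant libraries, and H3f3b had 797 and 877 against 923 and 895 CPM. The ratio between the mutant libraries was 1.13 for H3f3a and 1.03 for H3f3b, the genes of the variant H3.3, and at least 2.39 in each of the 7 tested canonical H3 genes. All 10 variants were higher in Trem2 mutant 1 than in Trem2 mutant 3, with a median ratio of 1.26, and 1 was more than 2-fold higher. Of 18 histone chaperone and import genes 1 fell and 0 rose, against 3.6% of all genes tested called lower and 9.55% called higher. The gene that fell was Npm1, which encodes nucleophosmin, at -0.39 ± 0.082 (adjusted p = 0.021). Npm1 was not called without WT 1, without WT 2 or by DESeq2 (adjusted p = 0.100). The chaperone and import list had a median log2 fold change of -0.09 without Trem2 mutant 1 and -0.17 without Trem2 mutant 3.

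Genes of the cell cycle were read beside the 9.55% of all genes called higher and 3.6% called lower. Of 32 genes of S phase and DNA replication 0 rose and 2 fell: Cdt1, which licenses origins, at -1.13 ± 0.198 (adjusted p = 0.011) and Pold1, the catalytic subunit of DNA polymerase delta, at -0.87 ± 0.188 (adjusted p = 0.023). Pcna, the replication clamp, had 75.6 and 86.9 CPM in the WT and 68.6 and 72.4 CPM in the mutant libraries. The list's median log2 fold change was 0.02 and its median ratio between the mutant libraries 1.11, with 23 of 32 genes higher in Trem2 mutant 1 and 0 more than 2-fold. The list's calls moved with the libraries used, as did those of all genes tested, so the 0 that rose is not a stable count. Its median log2 fold change was 0.08 without Trem2 mutant 3, -0.12 without Trem2 mutant 1 and -0.02 without WT 2. Of 20 genes of G2 and mitosis 5 rose and 0 fell, with a median of 1.05. Mki67, a marker of cycling cells, rose from 92.0 and 88.0 CPM to 152 and 123 CPM (0.61 ± 0.108, adjusted p = 0.011). Cenpf, a kinetochore protein, rose from 2.07 and 2.08 CPM to 15.2 and 6.77 CPM (2.39 ± 0.427, adjusted p = 0.011). All 20 were higher in Trem2 mutant 1 than in Trem2 mutant 3, 8 of them more than 2-fold, with a median ratio of 1.86. The count of 5 also depended on the libraries used, as did the count of all genes called. The median of this list was 1.46 without Trem2 mutant 3, 0.46 without Trem2 mutant 1, 0.94 without WT 1 and 1.09 without WT 2. Whether the 2 lists differ was not tested. Without WT 1 the adjusted p was 0.068 for Mki67, 0.059 for Cenpf, 0.073 for Cdt1 and 0.089 for Pold1. Without WT 2 it was 0.073 for Mki67 and 0.103 for Pold1.

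Other RNAs without a poly(A) tail were compared as well. Of 12 tested structured RNAs 7 rose in the mutant and 0 fell, against 9.55% of all genes called higher and 3.6% called lower. They included Rprl3, an RNase P RNA-like gene, at 1.37 ± 0.134 (adjusted p = 0.001), and Rny3, a Y RNA, at 1.16 ± 0.192 (adjusted p = 0.008). The count of 7 depended on the libraries used, as did the count of all genes called. The list's median log2 fold change was 1.05 with all 4 libraries. It was 1.25 without Trem2 mutant 3, 0.62 without Trem2 mutant 1, 1.14 without WT 1 and 0.87 without WT 2. Rn7s2 fell without Trem2 mutant 3, and Rpph1 fell without Trem2 mutant 1. Rprl3 was called with any 1 library left out, and Rny3 was not without WT 1 (adjusted p = 0.054). Rpph1, the RNA of RNase P, named after its values were seen, had 3136 and 2399 CPM in the WT, 5053 in Trem2 mutant 1 and 1308 in Trem2 mutant 3. As in most members, Trem2 mutant 1 was the highest library and Trem2 mutant 3 the lowest, with a ratio of 3.86 between them, while the WT libraries were in the opposite order to the members' sum. Rprl3 lacked this gap, at 68.6 and 69.4 CPM in Trem2 mutant 1 and 3. The ratios of this list ran from 0.14 to 6.43 with a median of 1.36, and 3 of 12 were over 2-fold.

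**Figure D5:**
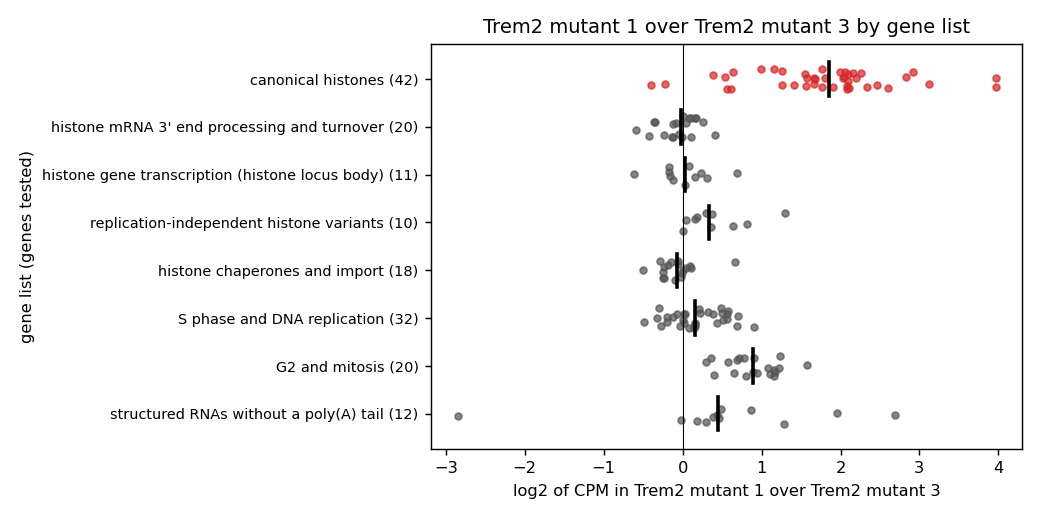
Log2 ratio of CPM in Trem2 mutant 1 over Trem2 mutant 3, 1 point per tested gene, for the canonical histones (red) and 7 lists of related genes (grey), with a black bar at each median and points spread vertically for legibility only. The canonical histones have a median of 3.62-fold, the G2 and mitosis list 1.86-fold, the structured RNAs 1.36-fold and the 3′ end processing list 0.982-fold.

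Cell type markers differed between the mutant libraries to unlike extents. The 4 tested markers of the sort gate had a median ratio of 1.09 (range 0.974 to 1.34). The 10 neutrophil granule markers were all higher in Trem2 mutant 1, with a median ratio of 1.22 (range 1.02 to 1.51). The 5 primary granule markers of early granulocyte precursors, such as Mpo and Elane, were too, with a median of 1.90 and summed levels of 15.0 and 20.7 CPM in the WT, 60.7 in Trem2 mutant 1 and 30.8 in Trem2 mutant 3. Macrophage markers had a median ratio of 1.56. Erythroid markers were lower in Trem2 mutant 1 in 4 of 4, with a median ratio of 0.36. Median ratios were 1.14 for fibroblast, 0.966 for lymphoid and 0.927 for epithelial tumour markers. Gm42418 was 38.9-fold higher in Trem2 mutant 1. The part of these differences in the members' values was not tested.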

How the data were processed

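Per the labels, rRNA-depleted total RNA was sequenced on a NextSeq instrument with a 75-cycle kit. The authors deposited whole-number read counts, 1 per Ensembl gene and library, with no scaling. Tools listed in the submitters' processing notes are FastQC, STAR (2.5.2a) and DESeq2, with the build GRCm38 (mm10). The counter, its strand setting and its handling of reads with several matches were not given in the sources used here. Members and gene lists were chosen with earlier results of these data known. Names, classes and exons came from GENCODE M21 (17422 of 17476 IDs matched). Genes were filtered with filterByExpr, scaled with TMM and tested with edgeR 4.0.16 (R 4.3.3; glmQLFit with legacy = TRUE, two-sided, genotype only, Benjamini-Hochberg over all genes tested, threshold 0.05), checked on simulated data. Intervals (95%) cover counting error only: Wilson for shares, exact conditional binomial for ratios of 2 libraries. A floor of 3 reads was 0.322 to 0.359 CPM. Alternatives were other scalings, filters, DESeq2 1.42.0, limma-voom 3.58.1, the bias-adjusted form, noncoding and mitochondrial genes left out, and each library left out. Shared 75-base windows were sought in GENCODE M21 transcripts of other genes, since no genome was used here. The members named by rule were the 8 with the highest mean CPM and the highest of each class and cluster; up to 4 genes of lowest p per list, with Slbp, Npat, H2afz, H2afx, H3f3a, H3f3b, Mki67 and Pcna, were eligible from the lists, and other members in the text were picked after their values were seen. The column numbered 3 matches no label number and was used as a mutant library. RPKM use the exonic length of all annotated transcripts.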

Additional observations from a re-analysis of the deposited data

How the results depend on the processing

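No paired analysis was possible because the columns of the 2 groups share only the number 1. The count of all genes called was 1873, 5015 with library totals alone, and between 581 and 3002 with 1 library left out; with totals the share of calls that were higher fell from 72.6% to 13.0%. The count of members called was 0, 4 with library totals alone, and between 0 and 19 with 1 library left out. The count of genes called in the lists was 19, 50 with library totals alone, and between 5 and 52 with 1 library left out. With reads of protein-coding nuclear genes as the denominator, members took 0.0979%, 0.127%, 0.130% and 0.0566% of reads in WT 1, WT 2, Trem2 mutant 1 and Trem2 mutant 3, so Trem2 mutant 1 was then the highest library, as in CPM. Leaving out members with overlapping exons gave 0.0701%, 0.0907%, 0.0757% and 0.0408%, and leaving out members sharing over 50% of their windows 0.0820%, 0.107%, 0.0906% and 0.0472%. With library totals alone the log2 fold change changed sign for Hist1h1e (-0.35), Hist1h2bc (-0.28), Hist1h2be (-0.20), Hist1h3e (-0.0206) and Hist3h2a (-0.34). It also changed sign for Hist1h1e with limma-voom (-0.17) and for Hist3h2a with upper-quartile scaling (-0.0124). With 1 library left out, the log2 fold change ran from -0.50 to 0.12 for Hist1h1c, -1.04 to 0.73 for Hist1h1e, -1.64 to 0.71 for Hist1h4d, -1.82 to 0.53 for Hist1h1d, -1.56 to 0.12 for Hist2h4, -0.57 to 1.11 for Hist1h1b, -0.0909 to 0.30 for Hist1h2bc, -0.16 to 0.65 for Hist1h2be, -1.65 to 0.42 for Hist2h2ac, -0.97 to 1.13 for Hist1h3e, -0.13 to 0.20 for Hist3h2a and -1.08 to 0.50 for Hist4h4. Over these 12 genes, 119 of the values under an alternative kept direction and side of the threshold, 11 kept the direction and passed it, and 26 changed sign. The cause of these changes was not tested. Depth limits the low members: Hist1h2ad had 1 read in WT 1 and in Trem2 mutant 3.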

Other observations

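Few other well-counted genes shared the contrast between the mutant libraries. Of 8432 genes with a mean of at least 10 CPM, 46 were more than 2-fold higher in Trem2 mutant 1 than in Trem2 mutant 3, and 9 of these 46 were canonical histones. The other genes, chosen after their values were seen, included Gm42418 at 38.9-fold and the ribosomal RNA gene CT010467.1 at 5.48-fold. Reads on Lars2, which encodes mitochondrial leucyl-tRNA synthetase, were 8.13-fold higher. They were 759, 252, 4554 and 560 CPM in WT 1, WT 2, Trem2 mutant 1 and Trem2 mutant 3. Gm42418 ranked the libraries in the same order, at 9079, 2278, 171844 and 4415 CPM. Whether the Lars2 reads came from its mRNA was not tested. The inducible heat shock genes Hspa1b and Hspa1a were 4.58-fold and 3.58-fold higher, with 39.4 and 39.3 CPM in Trem2 mutant 1 against 8.60 and 10.96 CPM in Trem2 mutant 3. Arg1, the arginase used by suppressive myeloid cells, was 2.80-fold higher, and Fn1, fibronectin, 2.27-fold higher. The RNase MRP RNA gene Rmrp had 5467, 3312, 9189 and 4214 reads in WT 1, WT 2, Trem2 mutant 1 and Trem2 mutant 3, and the overlapping gene Ccdc107 had 5326, 3260, 9103 and 4243, so the reads of this pair cannot be told apart.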
